A study of Mus musculus with 6 samples.

Results

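Srebf2 and 7 enzymes of cholesterol synthesis (Hmgcs1, Idi1, Fdps, Fdft1, Sqle, Lss and Cyp51) were followed in haematopoietic stem cells with and without the lymphotoxin β receptor gene, Ltbr. The 8 genes were picked by symbol as the sterol-responsive transcription factor and a set of its classical target enzymes, and each of the 8 is listed once among 26216 gene names measured by RNA sequencing. RNA came from LT/ST-HSCs, sorted from bone marrow as living lineage-negative cells with sca1, c-kit and CD150 but no CD48, of mixed chimeric mice 6 weeks after transplantation. The chimeras were lethally irradiated Ly5.1/Ly5.2 recipients of equal numbers of LSK progenitors from Ltbr-/- donors (CD45.2) and from Ly5.1 donors (CD45.1), so both genotypes shared the irradiated host, the transplantation and, within a chimera, the same marrow. Ltbr-/- donors carry the germline deletion on both alleles in every cell, and Ly5.1 donors, congenic mice with wild-type Ltbr, served as control. Cells of 6 chimeras were pooled to 3 replicates per genotype. The labels give donor ages of 13, 10 and 10 to 13 weeks for the Ltbr-/- replicates and of 7 to 13 weeks for each Ly5.1 replicate, so donor age, the congenic background and the genotype cannot be told apart completely. The question addressed by the comparison is how LTβR loss changes the transcriptome of these stem cells.

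Cholesterol is built from acetyl-CoA through the mevalonate pathway, which also supplies isoprenoids for protein prenylation, and then through squalene and lanosterol. SREBP2, the product of Srebf2, is held in the endoplasmic reticulum with SCAP and INSIG when sterols are plentiful. When sterols fall it is cleaved, enters the nucleus and activates the enzymes of the pathway. Much of its control is therefore on the protein, which RNA levels do not measure.

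The deleted gene, Ltbr, was at 24.2, 26.4 and 23.1 in Ltbr-/- samples and at 564, 549 and 522 in Ly5.1 samples, as the labels state. All values here are the deposited expression values on a linear scale, and a log2 difference is Ltbr-/- minus Ly5.1. Their log2 was read as the regularized logarithm named in the methods, which the labels do not state. Read counts were not given, so that the depth of each library is unknown and no counting interval can be attached. Names in the upper 50% by mean value, 13108 of them and all 8 genes included, were tested with limma. A gene was called when its Benjamini-Hochberg adjusted p was under 0.05 and its fold at least 1.5, and 356 tested names (2.72%) were called higher and 8 lower. The stem cell markers Kit, Ly6a, Slamf1 and Procr were present in all samples. Of the 2 multipotent progenitor markers, Cd48, which the sort selected against, was between 20.1 and 28.9, at percentile 5.81 of tested names by mean value. Flt3 RNA was present, between 705 and 927, and whether it came from progenitors was not tested. In bulk samples a change in the number of cells of a type and a change in RNA per cell cannot be told apart.

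One of the 8 genes, Fdps, was called higher in Ltbr-/- cells and none was called lower by limma (0 of the 8 had a lower value at an unadjusted p under 0.05). Both Fdps and Sqle passed the adjusted p at any fold, where 10.6% of tested names were higher and 4.18% lower. Their Ltbr-/- values lay above all Ly5.1 values, as in 17.0% of tested names. Both stayed higher under every alternative run except a scaling on ribosomal protein genes. The other 6 genes overlapped between the groups, and 3 of the 8 log2 differences were above 0. The median of the 8 was -0.02, beside -0.01 for all tested names, which leaves Fdps and Sqle apart from the other 6.

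**Figure D1:**
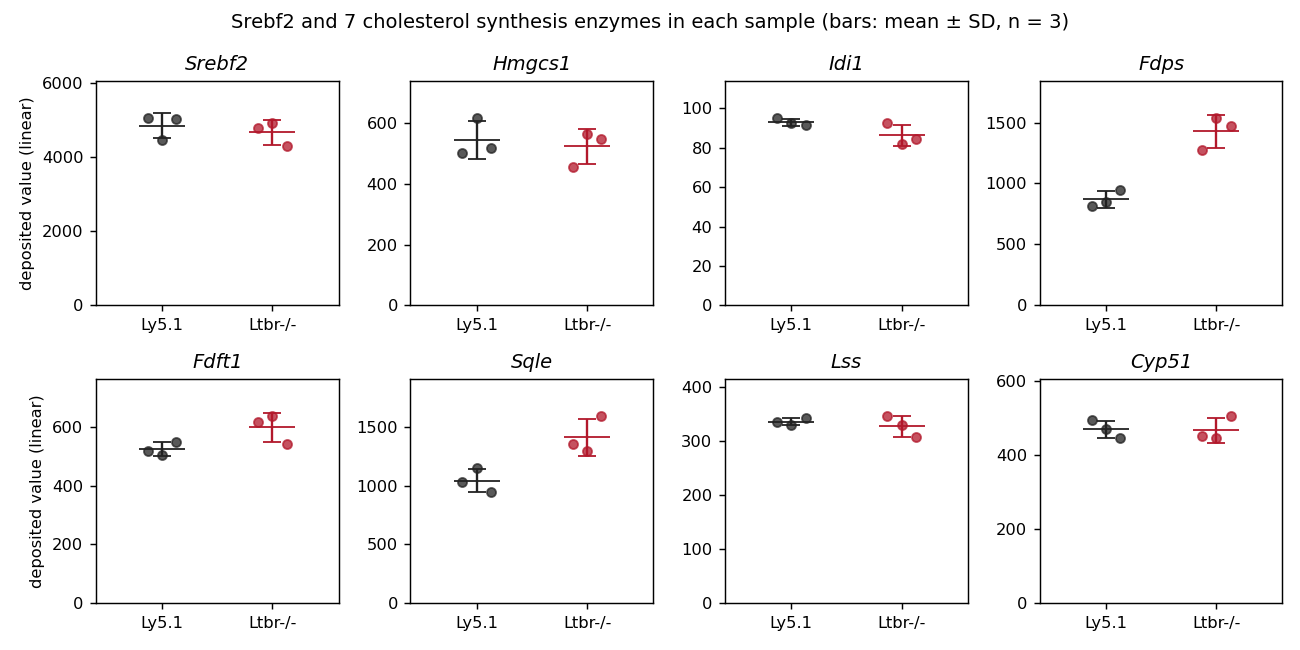
Deposited expression values (linear scale, each axis from 0) of Srebf2 and 7 cholesterol synthesis enzymes, one point per sample, for Ly5.1 (black) and Ltbr-/- (red) with mean and SD (n = 3). The Ltbr-/- points of Fdps lie between 1274 and 1535 and those of Sqle between 1295 and 1595, above all Ly5.1 points of the same gene, while the groups overlap in the other 6 panels.

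Srebf2, the regulator, overlapped between the groups at the RNA level and did not pass the test. Its level was 4783, 4904 and 4283 in the Ltbr-/- replicates and 5035, 4447 and 5025 in the Ly5.1 replicates. The means were 4657 ± 330 (SD, n = 3) and 4836 ± 337 (SD, n = 3). This gave a log2 difference of -0.05 (SE 0.08, 95% interval -0.21 to 0.10, limma adjusted p = 0.697). After quantile normalization the log2 difference was -0.20, with a limma adjusted p = 0.0525 that lay next to the threshold. Srebf2 was among the more abundant transcripts, at percentile 97.2 of the tested names by mean value.

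Hmgcs1, the cytosolic synthase that makes HMG-CoA, had values of 457, 566 and 550 in Ltbr-/- cells and 502, 617 and 517 in Ly5.1 cells. The log2 difference was -0.06 (95% interval -0.26 to 0.15, limma adjusted p = 0.764). Idi1 encodes the isomerase that converts isopentenyl to dimethylallyl diphosphate. Its values were the lowest of the 8 genes, at 92.4, 82.0 and 84.7 in Ltbr-/- cells and 94.9, 92.8 and 91.4 in Ly5.1 cells, which overlapped in 1 Ltbr-/- replicate. The log2 difference was -0.11 (95% interval -0.26 to 0.04, limma adjusted p = 0.374).

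Fdps, whose product farnesyl diphosphate synthase makes the last intermediate shared by sterols and isoprenoids, rose the most among the 8 genes. Its values were 1274, 1535 and 1473 in the Ltbr-/- replicates and 817, 845 and 945 in the Ly5.1 replicates. All 3 Ltbr-/- values lay above the highest Ly5.1 value. The means of 1427 ± 136 and 869 ± 67.1 (SD, n = 3 each) differed by 1.64-fold (95% interval 1.44 to 1.86), a log2 difference of 0.71 (SE 0.09, limma adjusted p = 1.25e-07). The exact two-sided permutation test gave p = 0.1, the smallest value that 3 against 3 samples allow. Leaving out each sample in turn kept the log2 difference between 0.66 and 0.79.

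The Fdps measurement has limits that follow from its sequence. On GRCm38.p6 the gene lies on chromosome 3 (chr3:89093588-89101967), and its chosen transcript of 1237 bases is short. Of its 1162 windows of 76 bases, the length of the reads, 420 (36.1%) were also found at other loci, among them the processed pseudogenes Gm3571 on chromosome 10 (326 windows) and Gm5873 on chromosome 6 (120 windows). A further gene model at the same locus, Gm43738, shared 800 windows. None of these names is listed in the data, so reads could not be followed to them, and the part of shared reads in the Fdps value was not tested. The first 150 coding bases of Fdps are the same in Gm3571. The next 150 coding bases are shown because they hold the nearest places where a read can tell the 2 copies apart, the 3 differing bases in capitals, read from the GENCODE M21 transcripts 5′ to 3′.
Fdps: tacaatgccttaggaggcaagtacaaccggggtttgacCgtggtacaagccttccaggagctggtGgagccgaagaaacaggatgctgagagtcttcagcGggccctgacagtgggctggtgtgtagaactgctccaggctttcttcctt
Gm3571: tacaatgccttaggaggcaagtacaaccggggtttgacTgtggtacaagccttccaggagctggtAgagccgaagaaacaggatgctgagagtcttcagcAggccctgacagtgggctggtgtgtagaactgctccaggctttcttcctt

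Fdft1, which encodes squalene synthase at the first committed step to sterols, had values of 619, 638 and 544 in Ltbr-/- cells and 518, 506 and 551 in Ly5.1 cells. Only the third Ltbr-/- replicate fell within the Ly5.1 range. The log2 difference was 0.19 (95% interval 0.002 to 0.38, limma adjusted p = 0.179) and did not pass the threshold. The windows of Fdft1 were shared with another locus, the pseudogene Gm6781, in 7.68% of cases, and those of Idi1 with Gm13502 in 20.6%. Srebf2, Hmgcs1, Sqle, Lss and Cyp51 shared none.

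Sqle encodes squalene epoxidase, the first oxygen-requiring and a rate-limiting enzyme of the sterol branch. Its values were 1357, 1295 and 1595 in the Ltbr-/- replicates and 1031, 1150 and 950 in the Ly5.1 replicates, without overlap. The means were 1415 ± 159 and 1044 ± 101 (SD, n = 3 each). Sqle thus rose 1.35-fold (95% interval 1.19 to 1.54), with a log2 difference of 0.44 (SE 0.09, limma adjusted p = 0.000679), which is below the fold of 1.5 required for a call. It passed the adjusted p in all 6 fits that left out 1 sample (log2 difference 0.35 to 0.51, largest limma adjusted p = 0.0231). It did not when names in the upper 75% by mean were tested (limma adjusted p = 0.0946), a setting that let in names with the same value in all samples. With every name whose values differ between samples tested, Sqle passed (limma adjusted p = 0.00321).

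The last enzymes among the 8 genes, which follow squalene epoxidase, did not change with it. Lss encodes lanosterol synthase, which closes the sterol rings, and had values of 345, 329 and 307 in Ltbr-/- cells and 335, 328 and 342 in Ly5.1 cells. The log2 difference was -0.04 (95% interval -0.22 to 0.15, limma adjusted p = 0.849). Cyp51 encodes lanosterol 14α-demethylase and had values of 450, 444 and 504 in Ltbr-/- cells and 493, 469 and 446 in Ly5.1 cells. Its log2 difference was -0.01 (95% interval -0.20 to 0.18, limma adjusted p = 0.965). In both genes the groups overlapped, and the intervals leave room for changes smaller than that of Fdps.

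Ratios within a sample do not depend on how samples were scaled to each other by a common factor. The ratio of Fdps to Srebf2 was 0.266, 0.313 and 0.344 in the Ltbr-/- replicates and 0.162, 0.190 and 0.188 in the Ly5.1 replicates. Fdps was thus 1.70-fold higher relative to the gene of its regulator, without overlap (exact two-sided permutation p = 0.1, the smallest possible). The ratio of Fdps to Hmgcs1 was 2.79, 2.71 and 2.68 in Ltbr-/- cells and 1.63, 1.37 and 1.83 in Ly5.1 cells, which is 1.71-fold higher. Sqle relative to Lss was 3.93, 3.94 and 5.20 in Ltbr-/- cells and 3.08, 3.51 and 2.78 in Ly5.1 cells, 1.39-fold higher. The 7 ratios computed, of Fdps or Sqle or the enzyme gene Mvd to a partner that did not pass, were all higher without overlap, a direction set by the choice of these pairs.

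Levels of different genes were compared per kilobase of the chosen transcript. In Ly5.1 cells Srebf2 stood highest with 953 ± 66.3 per kb (SD, n = 3), followed by Fdps with 703 ± 54.2 and Sqle with 378 ± 36.5. Fdft1 with 183 ± 8.24 and Hmgcs1 with 168 ± 19.2 did not differ beyond their spread. Cyp51 with 119 ± 5.96, Lss with 71.8 ± 1.47 and Idi1 with 30.7 ± 0.598 followed. In Ltbr-/- cells the per-kilobase level of Fdps was 1154 ± 110 and that of Srebf2 917 ± 64.9, so the first and second places were exchanged, whereas the order of the other 6 was kept. The Fdps levels were not corrected for reads that other loci may share (36.1% of its windows), while Srebf2 had no shared window.

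More enzymes of the wider pathway rose than fell, except with samples centred on ribosomal protein genes (a scaling described further on), where every call was lower. Of 14 further sterol synthesis enzymes, all of them tested, 4 rose at any fold, 1 fell and 9 did not pass, with a median log2 difference of 0.13. In 8 of the 14 all Ltbr-/- values lay above all Ly5.1 values (17.0% of tested names), and in 1 below (13.5% of tested names). Together with the 7 enzymes above, 6 of 21 sterol enzymes rose (10.6% of all tested names did), 1 fell, and the median was 0.11. That share of all names varied with transcript length, described further on. It was 27.9% in the shortest of 5 length classes, 11.7% in the second and 6.51% in the middle one. Of the risers, Pmvk (1194 bases), Fdps (1237) and Tm7sf2 (1471) fall in the shortest class. Mvd (1756) and Msmo1 (2044) fall in the second, and Sqle (2758) in the middle class. The count of 6 was not corrected for length.

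Mvd, the decarboxylase that makes isopentenyl diphosphate, was the enzyme with the largest rise in the pathway. It had values of 2012, 1631 and 1808 in Ltbr-/- cells and 955, 833 and 1141 in Ly5.1 cells, without overlap. The log2 difference of 0.90 (SE 0.10, limma adjusted p = 3.39e-09) made Mvd the only other sterol enzyme called. No window of Mvd was shared with another locus. Its neighbours in the pathway on either side, Pmvk and Idi1, had log2 differences of 0.29 (limma adjusted p = 0.0454) and -0.11, so that the rise was not even along the mevalonate steps.

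The other enzymes past the adjusted p acted after lanosterol. Msmo1, the C4-methylsterol oxidase, rose by a log2 difference of 0.36 (limma adjusted p = 0.00591). Tm7sf2 and Lbr both encode a sterol C14-reductase, Lbr within a protein of the nuclear envelope, and they moved in opposite directions, with log2 differences of 0.29 (limma adjusted p = 0.0285) and -0.24 (limma adjusted p = 0.0317). The late reductase Dhcr7 was at 0.02.

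**Figure D2:**
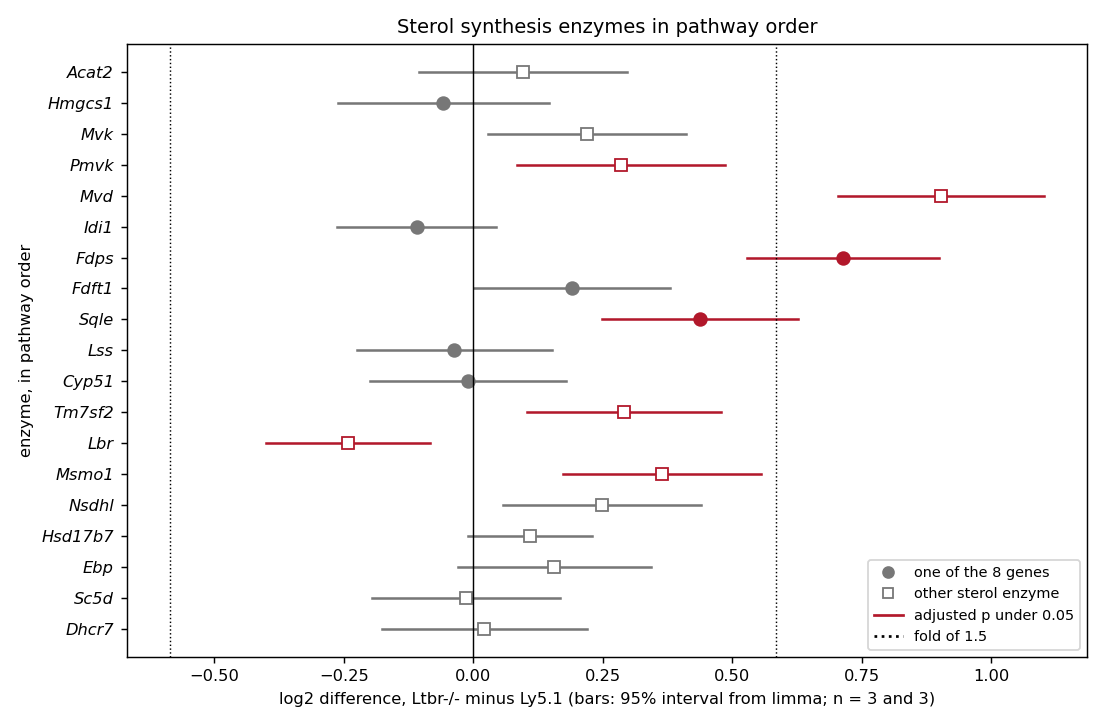
Log2 difference (Ltbr-/- minus Ly5.1, n = 3 and 3) of 19 sterol synthesis enzymes in pathway order from Acat2 at the top to Dhcr7 at the bottom, with 95% intervals from limma; filled circles are 7 of the 8 genes, open squares the other enzymes, red marks an adjusted p under 0.05 and dotted lines a fold of 1.5. The other 2 of the 21 enzymes are not shown. Mvd (0.90) and Fdps (0.71) stand past the dotted line, Sqle (0.44) short of it, and Hmgcs1 and Idi1 lie at or below 0.

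Of 9 genes of SREBP processing and control, the paralogue Srebf1 among them, 1 fell and 8 did not pass the threshold. Of all tested names 4.18% fell. The median log2 difference of the 9 genes was -0.07. The gene that fell was Mbtps1, the site-1 protease that cuts SREBP, with a log2 difference of -0.24 (limma adjusted p = 0.0413). Scap, the escort of SREBP, was at -0.12, Insig1, the sterol-dependent anchor and itself an SREBP2 target, at -0.19 (limma adjusted p = 0.200), and Srebf1, which favours fatty acid genes, at -0.07.

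The lists of sterol uptake, efflux and neighbouring lipid pathways are given beside the shares of all tested names, of which 10.6% rose and 4.18% fell. Of 7 tested uptake and trafficking genes 1 rose and 6 did not pass (median -0.06), the riser being Npc2, a lysosomal cholesterol carrier, with 0.36 (limma adjusted p = 0.00248). Of 11 tested genes of the LXR, oxysterol, efflux and storage list 1 fell and 10 did not pass (median -0.05). The faller was Apoe, the lipoprotein and LXR target, with -0.36 (limma adjusted p = 0.00181). Abca1, the efflux pump, was at -0.23 (limma adjusted p = 0.122) and Soat1, which esterifies cholesterol for storage, at 0.18 (limma adjusted p = 0.206).

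Of 11 isoprenoid genes, which draw on the farnesyl diphosphate made by Fdps, 1 rose and 10 did not pass (median -0.01). The riser was Rabggtb, the β subunit of the Rab prenyltransferase, with 0.28 (limma adjusted p = 0.0134). Of 13 fatty acid synthesis genes 1 rose and 1 fell (median -0.06), namely Fads2, a desaturase, with 0.26 (limma adjusted p = 0.0353) and Scd2, another desaturase, with -0.26 (limma adjusted p = 0.0493).

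Steroid synthesis, which consumes cholesterol, held the largest log2 difference of the 8 lists of sterol and lipid metabolism. Cyp11a1, the side-chain cleavage enzyme that turns cholesterol into pregnenolone, had values of 7324, 7736 and 8090 in Ltbr-/- cells and 2802, 3358 and 3145 in Ly5.1 cells, without overlap. The log2 difference was 1.32 (SE 0.08, limma adjusted p = 3.56e-16). Tspo, an outer mitochondrial membrane protein that binds cholesterol, rose by 0.48 on the log2 scale (limma adjusted p = 5.66e-05). All 6 tested genes of this list were above 0 (2 rose, 4 did not pass, median 0.25), whereas Hsd3b1, Hsd3b2 and Hsd3b6, which act on pregnenolone, were listed at 1 and Cyp17a1 at 0.738 to 0.747 in every sample. Cyp11a1 is also made by mast cells and basophils. In the list of 8 genes of those cells, 3 rose and 1 fell (10.6% and 4.18% of tested names did), and 4 were above 0. The summed value was 12346 to 12975 in Ltbr-/- and 8230 to 9214 in Ly5.1 samples. Its largest parts were Cma1 (means of 5470 in Ltbr-/- and 2195 in Ly5.1 samples) and Gata2 (4637 and 3993). The gene that fell was Prss34 (log2 difference -0.41, limma adjusted p = 0.0033). Cma1 rose most in that list (log2 difference 1.32), while the receptor genes Ms4a2 and Fcer1a stayed between 28.4 and 45.8. The part of such cells in the Cyp11a1 value was not tested.

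**Figure D3:**
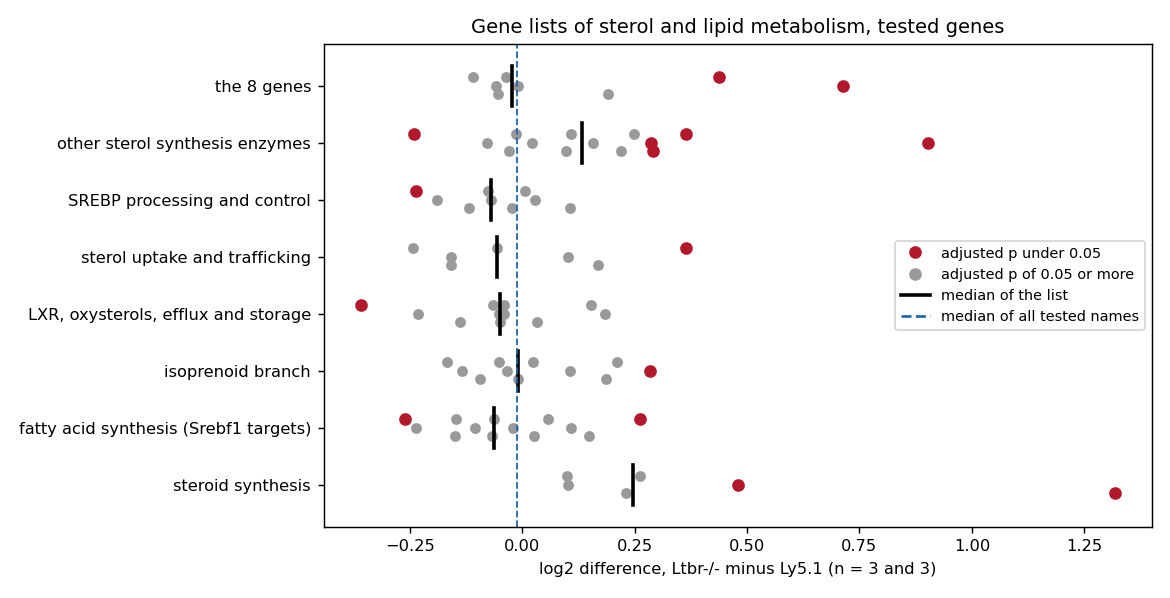
Log2 difference (Ltbr-/- minus Ly5.1, n = 3 and 3) of every tested gene in 8 lists of sterol and lipid metabolism, red where the adjusted p is under 0.05, with the median of each list (black bar) and of all tested names (dashed line, -0.01). The other sterol enzymes (median 0.13) and the steroid genes (median 0.25) lie to the right of the dashed line, and the 8 genes have their median at -0.02 with Fdps and Sqle apart.

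Transcript length moved with the difference between the groups across all genes. In the shortest of 5 length classes, which holds Fdps, the median log2 difference was 0.09 and 8.94% of names were called higher. In the middle class, with Hmgcs1, Idi1, Fdft1 and Sqle, 1.06% were called higher, and in the longest class, with Srebf2, the median was -0.08 and 0.315% were called higher. After a loess correction of each sample for transcript length and GC content, chosen after seeing the data, Fdps remained called with a log2 difference of 0.59 (limma adjusted p = 7.23e-07). Sqle was at 0.44 (limma adjusted p = 0.000238) after the same correction.

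**Figure D4:**
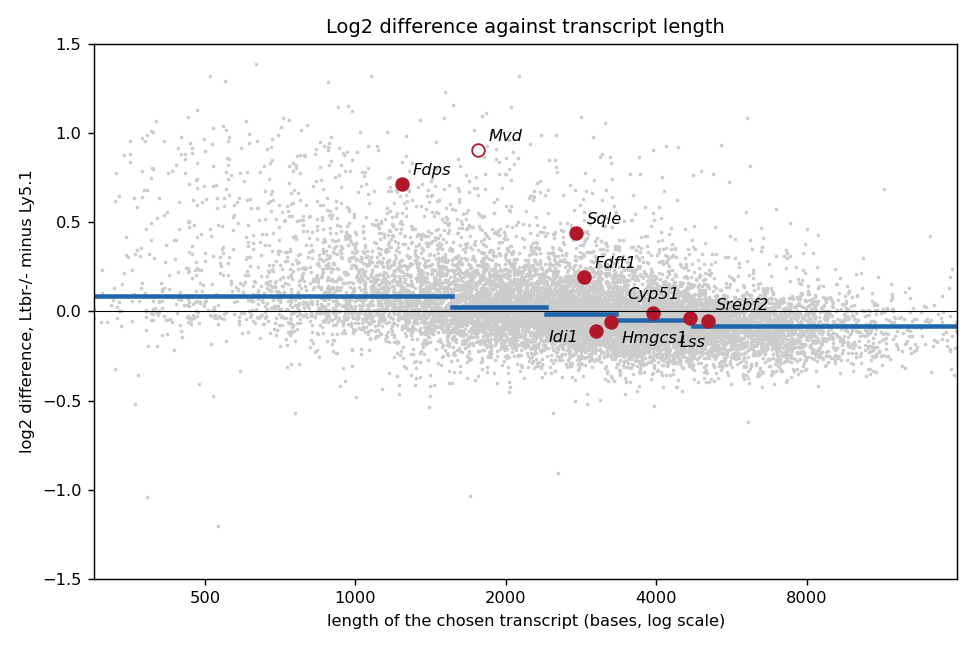
Log2 difference (Ltbr-/- minus Ly5.1) against the length of the chosen transcript in bases (log axis) for the tested names within the axes (grey), with the 8 genes (red) and Mvd (open circle) named; blue bars are the medians of 5 length classes. The medians fall from 0.09 in the shortest to -0.08 in the longest class, and Fdps, Sqle and Mvd lie above the median of their class.

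Of the alternatives run, 1 scaling turned the direction of Fdps and Sqle. Of 80 tested ribosomal protein genes 72 were called higher in Ltbr-/- cells. Centring each sample on their median shifted the typical tested name by -0.88 (log2), with 12010 names called and all of them lower. Under that centring Fdps was at -0.16 (limma adjusted p = 0.199) and Sqle at -0.44. Relative to that shifted level Fdps was 0.73 and Sqle 0.45 higher, Fdft1 0.20 higher, and the other 5 between -0.10 and 0.00. Quantile normalization gave 0.68 for Fdps, 0.40 for Sqle and -0.20 for Srebf2.

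**Figure D5:**
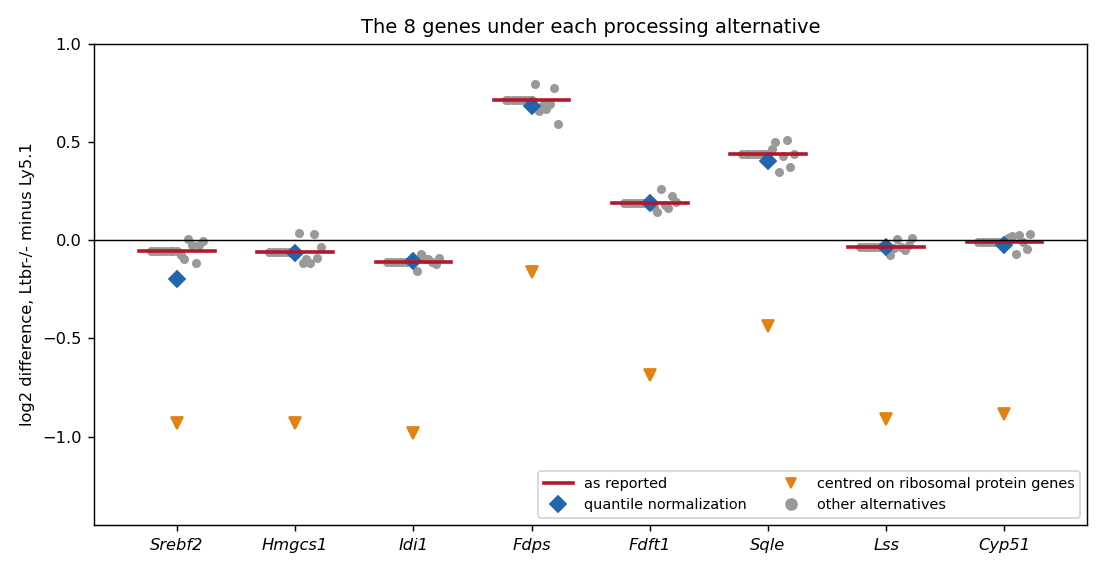
Log2 difference (Ltbr-/- minus Ly5.1) of the 8 genes as reported (red line), after quantile normalization (diamond), with samples centred on ribosomal protein genes (triangle) and under the other alternatives, each sample left out in turn among them (grey points). Centring on ribosomal protein genes lowers all 8 genes by a like amount and puts Fdps at -0.16, and the other points of Fdps lie between 0.59 and 0.79.

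The promoters of the 8 genes were searched for the letters of 3 motifs tied to SREBP2 control, on both strands. These were the sterol regulatory element core TCACNCCAC, the NF-Y box CCAAT and the Sp1 box GGGCGG. RefSeq windows (GRCm38.p6) from 250 bases before to 50 after the start were given for Srebf2, Hmgcs1, Idi1, Lss and Cyp51, 5 of the 8 genes; Fdps, Fdft1 and Sqle had no entry. Among all 32851 windows 1.24% held the element core, 37.4% an NF-Y box, 35.7% an Sp1 box and 0.441% both the core and an NF-Y box. Hmgcs1 was the one gene of the 5 with the core, 137 bases before its start (-137). Each of the 5 windows held at least 1 NF-Y box, from 1 in Srebf2, Lss and Cyp51 to 4 in Hmgcs1. Mvd, which rose, held 2 NF-Y boxes and no core in its window. The 250 bases before the start are shown for both, 5′ to 3′ on the strand of the gene with motif letters in capitals, because they set a gene with the element core whose RNA did not pass the test beside the enzyme with the largest rise. A match describes the letters of a window and is not a measured binding site. Only exact letters were counted, so a window without a match may still hold a variant of the element. The Srebf2 window, for example, holds tcaccccat, which differs from the core in its last letter. The Hmgcs1 stretch is chr13:119690101-119690350 (plus strand) and the Mvd stretch chr8:122443423-122443672 (minus strand).
Hmgcs1: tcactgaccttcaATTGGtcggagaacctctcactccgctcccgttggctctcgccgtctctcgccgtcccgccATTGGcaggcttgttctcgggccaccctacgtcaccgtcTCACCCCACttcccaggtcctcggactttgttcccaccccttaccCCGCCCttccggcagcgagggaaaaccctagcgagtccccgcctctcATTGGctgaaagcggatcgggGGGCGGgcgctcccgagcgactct
Mvd: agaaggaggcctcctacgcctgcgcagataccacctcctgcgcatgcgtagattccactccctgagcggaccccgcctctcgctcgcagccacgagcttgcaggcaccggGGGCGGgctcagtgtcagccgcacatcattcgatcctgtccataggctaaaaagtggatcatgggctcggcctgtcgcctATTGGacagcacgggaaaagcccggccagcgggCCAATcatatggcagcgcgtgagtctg

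Among all tested genes, those whose profile over the 6 samples was most like that of Srebf2 were Slfn8, Rdh12 and Rnf214, with root mean square differences of 0.01, 0.02 and 0.03 between the centred log2 profiles. The mean profile of the 7 enzymes was most like those of Psma4, Sh2d1b1 and Fip1l1, at 0.01, 0.02 and 0.02.

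Markers of other cell types also differed between the groups. Of 9 granulocyte and monocyte genes 7 fell (4.18% of tested names did) and 2 did not pass, with summed values of 22007 to 22313 in Ltbr-/- and 26539 to 29380 in Ly5.1 samples. Of 10 stem cell genes 3 fell, Ly6a among them (log2 difference -0.39), and 7 did not pass. None of the 10 was above 0 (median -0.17). In 6 of them all Ltbr-/- values lay below all Ly5.1 values (13.5% of tested names). In the B cell list Ighm (log2 difference -1.04) and Igkc (-1.21) were called lower and Cd79a (0.62) higher, of 4 tested genes. In the erythroid list Hba-a1 (0.99) was called higher and the other 4 genes did not pass. Of 4 tested megakaryocyte genes 1 rose and 1 fell, of 2 multipotent progenitor genes 1 fell, and the 1 tested T cell gene did not pass. Their part in the Fdps and Sqle values was not tested.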

How the data were processed

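RNA of 6 samples (3 Ltbr-/- and 3 Ly5.1) was sequenced by the authors with TruSeq stranded libraries and single reads of 76 bases, assembled with SeqMan NGen and quantified with ArrayStar. The submitters' processing notes also name DESeq2 and the builds GRCm38 and mm10. Deposited was 1 signal per gene name and sample. It was read as 2 to the power of the regularized logarithm named in the methods, which includes size factors and shrinkage, since the values are positive, of like median in all samples and equal to 1 for the same names; the shrinkage makes folds of low genes too small. Counts and library depth were not given, so precision rests on 3 replicates alone, pooled from 6 chimeras.

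The files list 26595 rows; for a repeated name the row with the highest mean was kept. Log2 values of names in the upper 50% entered a linear model in limma 3.58.1 (R 4.3.3) with genotype alone and moderated variances that follow the mean, with Benjamini-Hochberg adjustment over 13108 names. Exact two-sided permutation tests compared single ratios and genes. The fit was tested on simulated data. The 8 genes and the gene lists were chosen with earlier results of these data known. The genes named are the 8, every gene of a list with an adjusted p under 0.05, a few standard readouts (Insig1, Scap, Srebf1, Dhcr7, Abca1, Soat1, Cyp11a1; others are counted in their lists and not reported here by name), the nearest genes by profile, and Ltbr; single cell type markers, Hsd3b genes and Cyp17a1 were named after their values were seen. Positions and promoters came from RefSeq tables (GRCm38.p6, the build of the notes), transcripts from GENCODE M21, matched by symbol or synonym (Msmo1 is listed as Sc4mol). The sample titles do not state whether replicate numbers shared between the groups pair the samples, and they were not treated as pairs. Deviations of same-numbered samples correlated at 0.0314, -0.0052 and 0.0899, which cannot settle this with 3 replicates per group. Alternatives were other filters, scalings, variance models, fold thresholds, a pseudocount, summed repeated names, the replicate number as a block, each sample left out and a correction for length and GC content.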

Additional observations from a re-analysis of the deposited data

How the results depend on the processing

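Whether the replicate numbers pair the samples is not known. With the number as a replicate block the fit called 364 names, as without it, and kept every count of the 8 genes. Fdps was then at 0.71 (limma adjusted p = 1.52e-06) and Sqle at 0.44 (limma adjusted p = 0.00253). Not every sample correlated best with its own number. Over all results and alternatives, 419 values stayed on their side of the threshold or, for counts and medians, within 1.5 times or within the replicate spread, 40 moved beyond that, 12 reversed, 5 newly passed and 1 no longer passed; Fdps passed the adjusted p as higher under 16 of 17 alternatives and Sqle under 15 of 17. Centred on ribosomal protein genes, 0 of the 8 genes were called higher and 6 lower, 0 passed the adjusted p as higher and 7 as lower, and their median was -0.90; Srebf2 was at -0.93, Hmgcs1 at -0.93, Idi1 at -0.98, Fdps at -0.16, Fdft1 at -0.68, Sqle at -0.44, Lss at -0.91 and Cyp51 at -0.89. Under the same centring the numbers called and medians were 11 and -0.74 for other sterol enzymes, 9 and -0.94 for SREBP control, 6 and -0.93 for uptake, 11 and -0.93 for LXR and efflux, 11 and -0.88 for isoprenoids, 13 and -0.94 for fatty acids, and 4 and -0.63 for steroids; this follows from the shift of all genes. With the upper 75% of names tested, 1 of the 8 genes passed as higher, since Sqle (0.44, limma adjusted p = 0.0946) no longer did. Fdps still passed, at a weaker limma adjusted p = 0.0143 beside 1.25e-07 in the main fit. That setting held 19662 names, more than the 17182 whose values differ between samples, so names without any spread entered its variance model. With all 17182 varying names tested, Fdps (limma adjusted p = 5.26e-06) and Sqle (limma adjusted p = 0.00321) both passed. The part of the names without spread in the weaker p-values was not tested. With a lower fold threshold (0.32 on the log2 scale) there were 2 calls among the 8 genes, 2 among other sterol enzymes, 1 in uptake, 1 in LXR and efflux and 2 in steroids, and with at least 2 there were 0 among the 8 genes and 0 among other sterol enzymes. After the length and GC correction the median of the 8 genes was 0.021, Lss was at 0.013 and Cyp51 at 0.030, and the medians were -0.10 for LXR and efflux, 0.0098 for fatty acids and 0.15 for steroids; the cause was not tested. With 1 sample fewer, the fits ranged from -0.11 to 0.0046 for Srebf2 (above 0 without the third Ltbr-/- replicate), -0.12 to 0.038 for Hmgcs1, -0.077 to 0.0084 for Lss and -0.068 to 0.026 for Cyp51, whose sign thus turned with 1 sample, from -0.024 to 0.026 for the median of the 8 genes, -0.10 to -0.0061 for SREBP control, -0.13 to 0.057 for uptake, -0.049 to 0.033 for isoprenoids and -0.075 to -0.026 for fatty acids. Regularized values hide depth, and 3 pooled replicates per genotype limit what small changes can be seen.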
